A study of Mus musculus with 12 samples.

Results

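The 10 genes described here encode proteins of the lipid droplet, its coat and the enzymes and cofactors that break down its fat. They are Cidea, Cideb and Cidec, Plin1, Plin2 and Plin4, Pnpla2 and Pnpla3, Abhd5 and G0s2. Their probes were found by the gene name in the scanner tables, where Plin2 is listed as Adfp, Plin1 as Plin and Plin4 as S3-12. The 10 genes had 12 of the 41174 probes, and 9 of them were among the 17043 genes that could be tested. Plin1 was the exception, because its probe was too dim.

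Liver RNA of 12 male C57BL/6 mice was measured, 1 mouse per array, on 1-colour arrays of 60-base probes. The mice had lost 1 copy of Sirt1, a gene for an NAD-dependent deacetylase (SIRT1+/-, called Het), or had both copies (SIRT1+/+, called WT), and ate a high-fat or a low-fat diet for 34 weeks. The groups were Het on high fat, WT on high fat, Het on low fat and WT on low fat, with 3 mice each. The age of the mice and the part of Sirt1 that is missing in the Het allele are not given in the sources used here.

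A lipid droplet is a core of triglycerides and sterol esters under a single layer of phospholipid, which proteins coat. Perilipins cover that surface and limit the access of lipases, and CIDE proteins gather where droplets touch and let fat pass into the larger droplet. Triglyceride is first cut by the lipase ATGL, the product of Pnpla2, which the ABHD5 protein activates and the G0S2 protein inhibits. CIDEA and CIDEC are best known from fat tissue and are found at raised levels in fatty liver, whereas CIDEB and perilipin 2 belong to the normal hepatocyte.

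Promoters of 2 members that rose on the high-fat diet are shown because PPARG, an activator of droplet genes whose own transcript is given further on, binds with its partner RXR to a repeated short motif. Each stretch is the 250 bases before an annotated start (RefSeq, GRCm38.p6), 5′ to 3′ on the strand of the gene. Capitals mark each AGGNCA on either strand, a 6-base motif with 1 free base. Cidec lies at chr6:113435761-113436010 on the minus strand and Abhd5 at chr9:122351366-122351615 on the plus strand.
Cidec: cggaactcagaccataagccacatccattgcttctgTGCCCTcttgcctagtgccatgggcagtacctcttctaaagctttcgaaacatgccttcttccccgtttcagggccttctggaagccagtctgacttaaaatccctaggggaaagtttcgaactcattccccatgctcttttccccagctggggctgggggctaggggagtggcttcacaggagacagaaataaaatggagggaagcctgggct
Abhd5: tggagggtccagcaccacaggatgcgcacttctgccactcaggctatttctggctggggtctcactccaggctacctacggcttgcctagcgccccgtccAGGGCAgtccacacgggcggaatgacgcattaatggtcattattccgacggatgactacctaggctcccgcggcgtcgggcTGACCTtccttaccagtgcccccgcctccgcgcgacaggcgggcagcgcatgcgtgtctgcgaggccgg
The Cidec stretch held 1 match, 214 bases before the start on the opposite strand. The Abhd5 stretch held 2 matches, at 150 bases on the gene's strand and at 69 bases on the opposite strand, and the nearer one was also an exact AGGTCA.

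In all, such windows of 9 members were searched, and Cidea was left out. They made 10 windows, because Cidec has 2 annotated starts 996 bases apart. Whether its probe separates these starts was not examined. AGGNCA was present in 4 of the 10 windows, those of Abhd5, 1 Cidec start, Plin1 and Plin2, and in 51.3% of all 32851 windows of that length. AGGTCA, which is contained in AGGNCA, was present in the windows of Abhd5 and Plin2 and in 14.0% of all windows. The full repeat AGGNCANAGGNCA was present in 0 of the 10 windows and in 0.338% of all. CCAAT was found before Plin2, Plin4 and Pnpla3 and in 33.8% of all windows, and TATAAA before Cideb and in 12.4%. Both strands were searched for each motif.

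Levels are log2 intensities relative to the 75th percentile of the array, so 0 is that percentile and each unit is a doubling of brightness. They compare mice for 1 probe and do not rank probes against each other. Each array had 58.0% to 71.6% of its spots well above background and a 75th percentile of 975.1 to 2006.4 intensity units, and no spot of a member was saturated. The diets were separated by the first principal component (41.6% of the variance). The high-fat arrays also shared a scan day that no low-fat array had, and no slide held both diets, so diet and scan day or slide cannot be told apart in any diet difference below. Sirt1 itself averaged -0.71 in Het against -0.27 in WT livers on high fat and -0.41 in Het against 0.03 in WT livers on low fat. Every Het array lay below every WT array within each diet, although the difference over both diets (-0.44 ± 0.09, SE) missed the threshold over all genes in limma (adjusted p = 0.972). Hepatocyte markers were present throughout, with a summed level, in multiples of the array's 75th percentile, of 840 to 1210 in Het and 829 to 1063 in WT high-fat livers, against 834 to 1030 in Het and 869 to 1175 in WT low-fat livers.

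On the high-fat diet Cidea, Cidec, Plin4, Abhd5 and Plin2 rose over both genotypes, and 0 of the 9 tested members fell. The increase was 23.4-fold for Cidea, 9.56-fold for Cidec and 5.11-fold for Plin4, and 1.33-fold for Abhd5 and 1.28-fold for Plin2. A call means an adjusted p under 0.05 in limma after Benjamini-Hochberg adjustment over all 17043 genes. By that rule 5 of 9 members rose and 0 fell, beside 13.4% and 16.7% of all genes tested. In Het mice alone 2 of 9 rose, Cidec and Plin4, and 0 fell, beside 7.6% and 8.25% of all genes. In WT mice alone 2 of 9 rose, Cidec and Abhd5, and 0 fell, beside 2.72% and 3.16%. The median difference over the 9 members was 0.48 in Het, 0.53 in WT and 0.41 over both, beside -0.004, -0.047 and -0.029 over all genes.

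**Figure D1:**
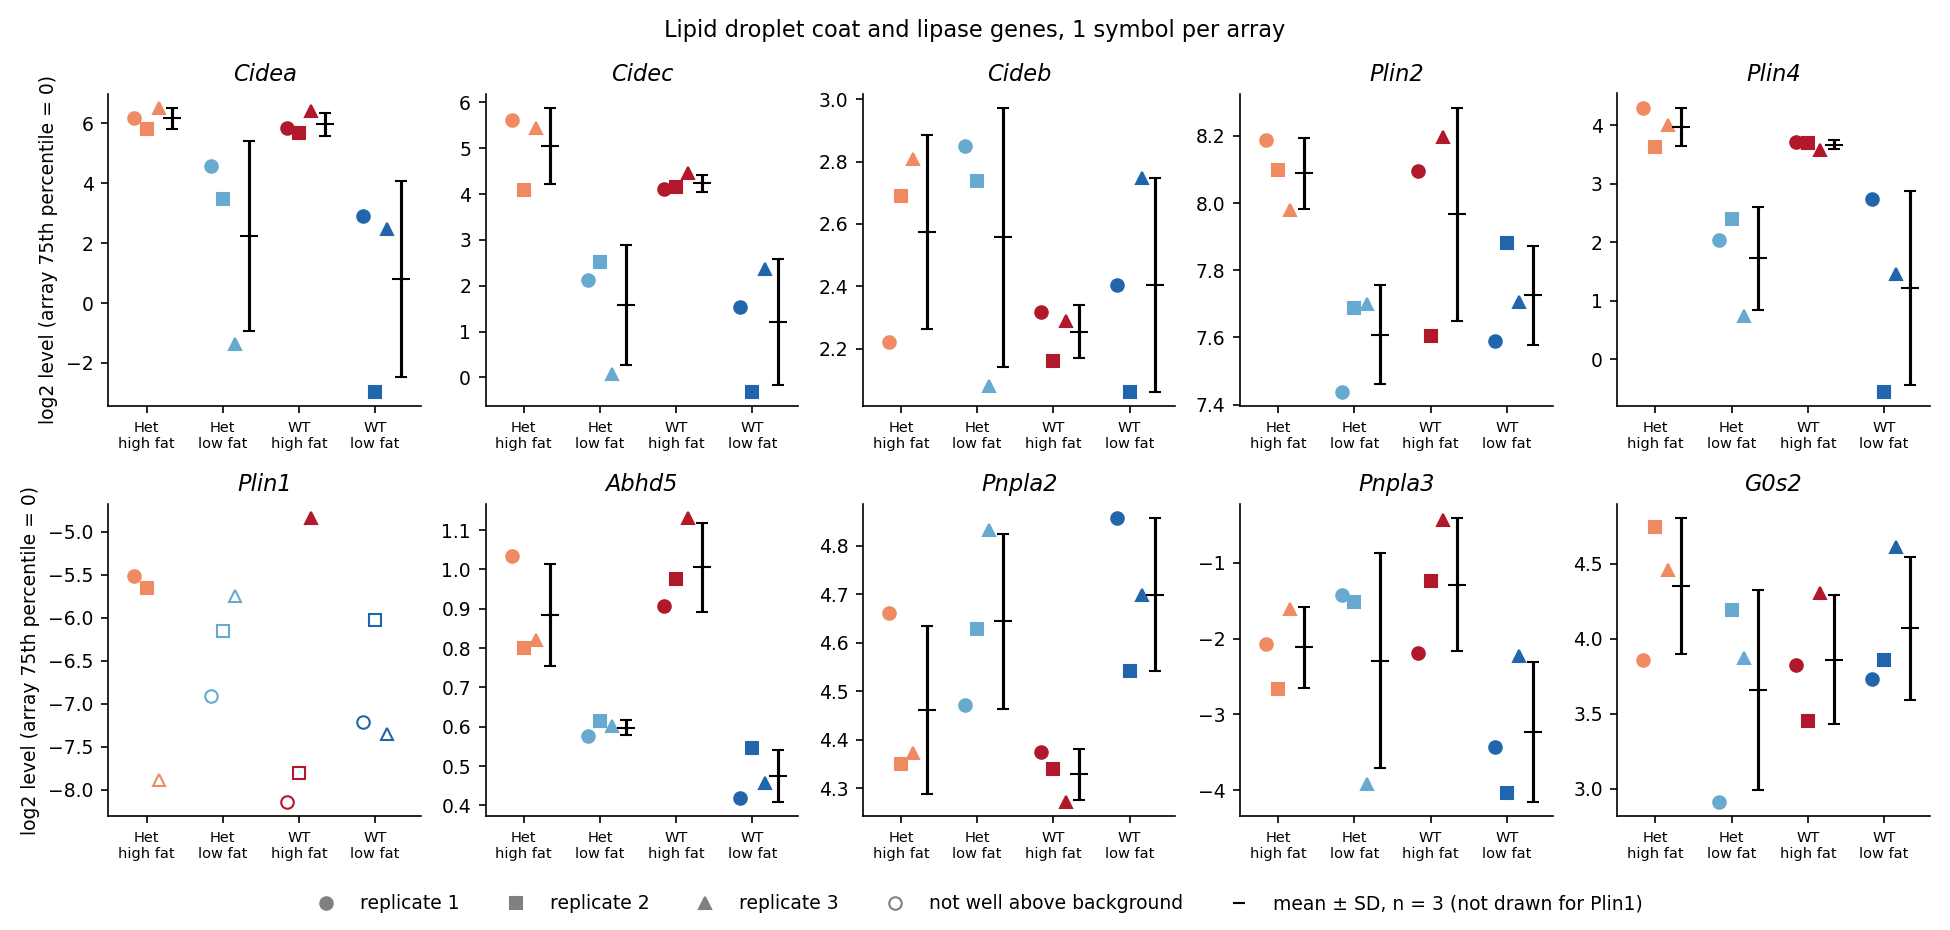
Log2 level of each member by its brightest probe (vertical axes, relative to the 75th percentile of the array) in every liver, grouped along the horizontal axes by genotype and diet. Filled points were well above background, open points were not, bars give the mean ± SD of 3 mice, and the 6 high-fat livers sit above the 6 low-fat livers for Cidea, Cidec, Plin4 and Abhd5, and Plin1 has open points in most livers.

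Cidec, which encodes the CIDE protein that makes the large droplets of white fat, changed in every diet comparison. Its level was 5.62, 4.09 and 5.43 in Het high-fat livers against 2.12, 2.52 and 0.08 in Het low-fat livers. In WT mice it was 4.11, 4.15 and 4.45 on high fat against 1.54, -0.31 and 2.37 on low fat. The lowest of the 6 high-fat livers was thus well above the highest of the 6 low-fat livers. The difference was 3.47 ± 0.74 in Het (SE, n = 3 per group, limma adjusted p = 0.0134), 3.04 ± 0.74 in WT (limma adjusted p = 0.0409) and 3.26 ± 0.52 over both (limma adjusted p = 0.00184). In Het the call was lost without Het high-fat mouse 1 (limma adjusted p = 0.0601). In WT it was lost without any 1 of 8 arrays and held only without Het high-fat mouse 1 or 2 or Het low-fat mouse 2 or 3, with a highest adjusted p of 0.111 in limma. The call over both genotypes held without any 1 array, with an adjusted p of at most 0.00610 in limma.

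Cidea, the CIDE gene best known from brown fat, had the largest fold of the members and also the widest scatter. In Het livers its level was 6.18, 5.82 and 6.52 on high fat against 4.59, 3.49 and -1.37 on low fat, and in WT livers it was 5.85, 5.67 and 6.41 on high fat against 2.91, -2.96 and 2.48 on low fat. All high-fat livers lay within 0.86 of each other and above all low-fat livers, 2 of which were far below the rest. The difference was 4.55 ± 1.14 over both genotypes (limma adjusted p = 0.0140). Within a genotype it did not pass, at 3.94 ± 1.62 in Het (limma adjusted p = 0.117) and 5.16 ± 1.62 in WT (limma adjusted p = 0.0812). Leaving out 1 array moved the value over both between 3.61, without WT low-fat mouse 2, and 5.14, without Het low-fat mouse 1, and the highest adjusted p was 0.0321 in limma. Without WT low-fat mouse 2 the Het difference passed (limma adjusted p = 0.0497), and without Het low-fat mouse 3 the WT difference passed (limma adjusted p = 0.0456), each at its same size, since all 4 groups share 1 estimate of the spread.

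Cideb, the family member of hepatocytes that serves the loading of very low density lipoprotein, did not pass in any comparison. Its level was 2.22, 2.69 and 2.81 in Het high-fat livers against 2.85, 2.74 and 2.08 in Het low-fat livers, and 2.32, 2.16 and 2.29 in WT high-fat livers against 2.40, 2.06 and 2.75 in WT low-fat livers. The diets overlapped in both genotypes. The difference over both was -0.07, with a 95% interval from -0.44 to 0.30, which leaves out the sizes seen for Cidea and Cidec.

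**Figure D2:**
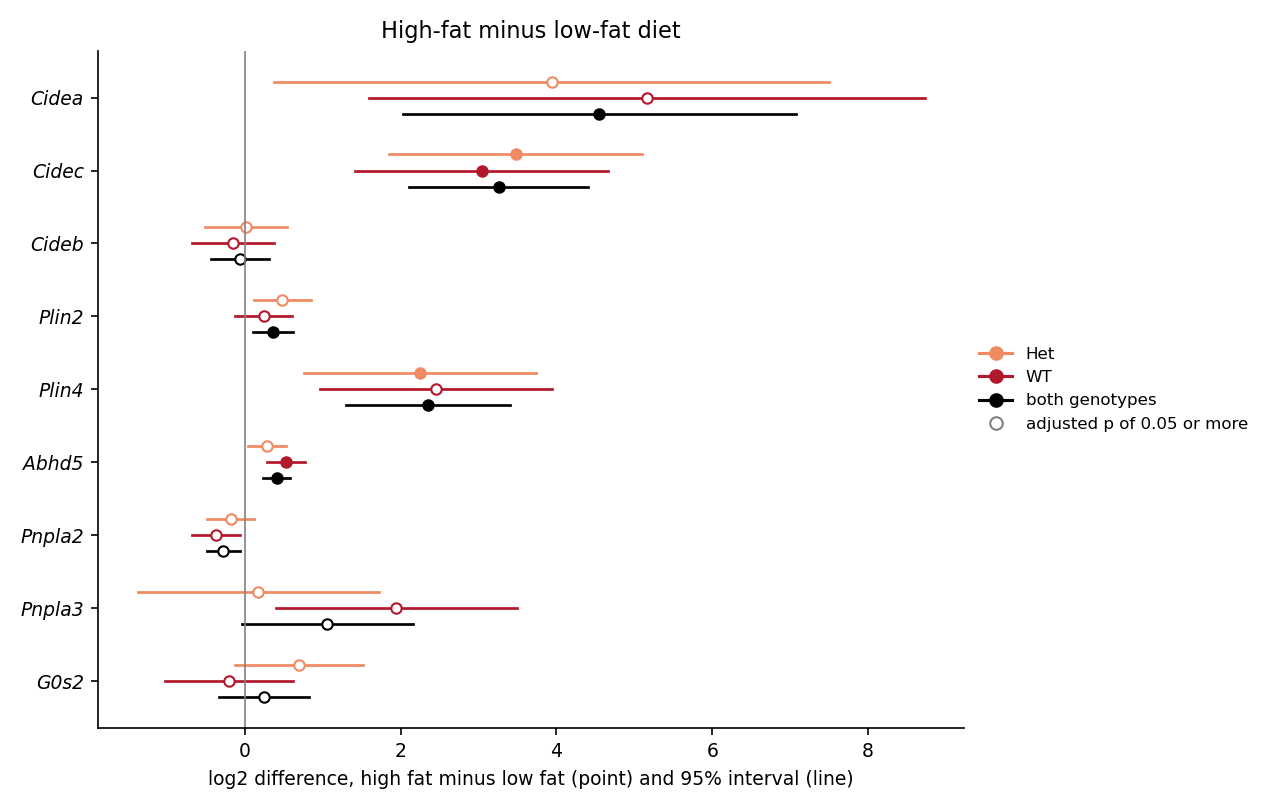
Log2 difference of high-fat minus low-fat livers (horizontal axis) for each tested member in Het, in WT and over both genotypes, with 95% intervals from limma and filled points where the adjusted p was under 0.05. Cidec is filled in all 3 rows, whereas Cidea, with the largest difference, has the widest intervals.

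Among the perilipins, Plin4, a perilipin abundant in white fat, rose most. Its level was 4.29, 3.63 and 3.99 in Het high-fat livers against 2.04, 2.39 and 0.73 in Het low-fat livers, and 3.71, 3.70 and 3.58 in WT high-fat livers against 2.73, -0.56 and 1.45 in WT low-fat livers. No high-fat liver fell into the low-fat range. The difference was 2.25 ± 0.67 in Het (limma adjusted p = 0.0465), 2.46 ± 0.67 in WT (limma adjusted p = 0.0571) and 2.35 ± 0.48 over both (limma adjusted p = 0.00550). The Het call was lost without any 1 of 10 arrays and held only without WT low-fat mouse 1 or 2. The WT difference was 3.22 without WT low-fat mouse 1, where it passed (limma adjusted p = 0.0377), and 1.57 without WT low-fat mouse 2, where it did not pass. The call over both held without any 1 array, at 1.91 without WT low-fat mouse 2 and 2.73 without WT low-fat mouse 1.

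Plin2, the main droplet coat of the liver, was bright in every mouse and shifted little. Its level was 8.19, 8.10 and 7.98 in Het high-fat livers against 7.44, 7.69 and 7.70 in Het low-fat livers, which did not overlap. In WT livers it was 8.10, 7.60 and 8.20 on high fat against 7.59, 7.88 and 7.71 on low fat, and there the diets overlapped through WT high-fat mouse 2. The difference was 0.48 ± 0.16 in Het (limma adjusted p = 0.0703), 0.24 ± 0.16 in WT (limma adjusted p = 0.377) and 0.36 ± 0.12 over both (limma adjusted p = 0.0384). The call over both was lost without any 1 of 8 arrays, with adjusted p up to 0.0914 in limma, and held without WT high-fat mouse 2, Het high-fat mouse 3, WT low-fat mouse 2 or Het low-fat mouse 3. Without WT high-fat mouse 2 the Het difference passed too (limma adjusted p = 0.0405).

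Plin1, which guards the large droplets of fat cells, was well above background in 2 of 3 Het high-fat livers and 1 of 3 WT high-fat livers, against 0 of 3 Het and 0 of 3 WT low-fat livers. It was therefore not tested, and no fold is given. Its values ran from -8.14 to -4.84, and the values that were not well above background have no order among themselves.

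The lipase Pnpla2 did not pass, and its probes disagreed. The brighter probe, which stands for the gene here, had 4.66, 4.35 and 4.37 in Het high-fat livers against 4.47, 4.63 and 4.83 in Het low-fat livers, and 4.38, 4.34 and 4.27 in WT high-fat livers against 4.86, 4.54 and 4.70 in WT low-fat livers. Every WT high-fat liver was below every WT low-fat liver, while the Het diets overlapped. Its difference was -0.18 ± 0.14 in Het (limma adjusted p = 0.382), -0.37 ± 0.14 in WT (limma adjusted p = 0.126) and -0.28 ± 0.10 over both (limma adjusted p = 0.0531). The last value lay near the threshold. It passed, as lower on high fat, without Het high-fat mouse 1, WT low-fat mouse 2 or Het low-fat mouse 1 (limma adjusted p = 0.0386, 0.0374 and 0.0497) and under 4 other settings with all 12 arrays (limma adjusted p from 0.00840 to 0.0476). The second probe gave 0.27 ± 0.14 in Het, -0.13 ± 0.14 in WT and 0.07 ± 0.10 over both, none of which passed over all probes (limma adjusted p from 0.212 to 0.615). The lower level on high fat was thus not seen with the second probe in Het or over both. In Het that probe lay wholly the other way, at 1.74, 1.77 and 2.03 on high fat against 1.61, 1.58 and 1.55 on low fat. By their brightest probes 17.4% of all genes were wholly higher in Het. The probes lie on chromosome 7 (mm7, plus strand), at 137877295 to 137877354 and 137876465 to 137876524. No mm7 annotation was used here, so the exons they read are not given.

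Abhd5, the activator of ATGL, rose by a small amount in WT and over both genotypes. Its brighter probe had 1.03, 0.80 and 0.82 in Het high-fat livers against 0.58, 0.61 and 0.60 in Het low-fat livers, and 0.91, 0.98 and 1.13 in WT high-fat livers against 0.42, 0.55 and 0.46 in WT low-fat livers. By this probe no high-fat liver overlapped any low-fat liver. The difference was 0.29 ± 0.11 in Het (limma adjusted p = 0.0976), 0.53 ± 0.11 in WT (limma adjusted p = 0.0259) and 0.41 ± 0.08 over both (limma adjusted p = 0.00407). The WT call was lost without any 1 WT high-fat mouse or without WT low-fat mouse 1 or 3, with adjusted p up to 0.0896 in limma, and the call over both held without any 1 array. The second Abhd5 probe gave 0.44 ± 0.22 in Het, 0.54 ± 0.22 in WT and 0.49 ± 0.15 over both, and passed over all probes in the last comparison only (limma adjusted p = 0.0365). By that probe the Het diets overlapped, at -0.37 to 0.10 on high fat against -0.87 to -0.29 on low fat, and the WT diets did not.

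G0s2, the inhibitor of ATGL, overlapped between the diets in both genotypes. It stood at 3.86, 4.74 and 4.46 in Het high-fat livers against 2.91, 4.19 and 3.87 in Het low-fat livers, and at 3.83, 3.45 and 4.31 in WT high-fat livers against 3.73, 3.86 and 4.61 in WT low-fat livers. The difference was 0.69 ± 0.37 in Het (limma adjusted p = 0.219), -0.21 ± 0.37 in WT (limma adjusted p = 0.758) and 0.24 over both, with a 95% interval from -0.34 to 0.82.

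Pnpla3, which encodes a droplet protein related to ATGL and is known for a common human variant linked to fatty liver, was dim and scattered. Its level was -2.07, -2.67 and -1.61 in Het high-fat livers against -1.43, -1.51 and -3.92 in Het low-fat livers. In WT livers it was -2.19, -1.24 and -0.43 on high fat against -3.43, -4.05 and -2.22 on low fat. The WT diets did not overlap, by a narrow margin, and the Het diets did. The difference was 0.17 ± 0.70 in Het (limma adjusted p = 0.887), 1.95 ± 0.70 in WT (limma adjusted p = 0.115) and 1.06 ± 0.50 over both (limma adjusted p = 0.128).

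Livers were also counted rather than tests, with each gene read by its brightest probe. In Het mice every high-fat liver exceeded every low-fat liver for 5 of 9 members, Cidea, Cidec, Plin2, Plin4 and Abhd5, beside 17.4% of all genes. In WT mice this held for 5 of 9, Cidea, Cidec, Plin4, Pnpla3 and Abhd5, beside 12.5% of all genes, and Pnpla2 lay wholly lower, beside 18% of all genes. With both genotypes together it held for 4 of 9, Cidea, Cidec, Plin4 and Abhd5, beside 6.01%. By the second probe of each gene, the diets overlapped for Abhd5 in Het and over both, and for Pnpla2 in WT and over both. In Het the second Pnpla2 probe was wholly higher on high fat, beside the same 17.4% of all genes.

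The members also differed in how far mice on 1 diet lay apart. Among the 6 low-fat livers Cidea spanned 7.55, the widest range of all 17043 genes, against a median of 0.59 over all genes. Plin4 spanned 3.29, Cidec 2.84 and Pnpla3 2.62 on low fat, with 0.464%, 0.874% and 1.23% of genes wider. On high fat Cidea spanned 0.86 and Plin4 0.71, with 29.1% and 39.6% of genes wider, whereas Cidec spanned 1.53 and Pnpla3 2.24, with 8.29% and 3.09% wider. Abhd5 and Pnpla2 were narrow on both diets, at 0.33 and 0.39 on high fat against 0.20 and 0.39 on low fat.

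**Figure D3:**
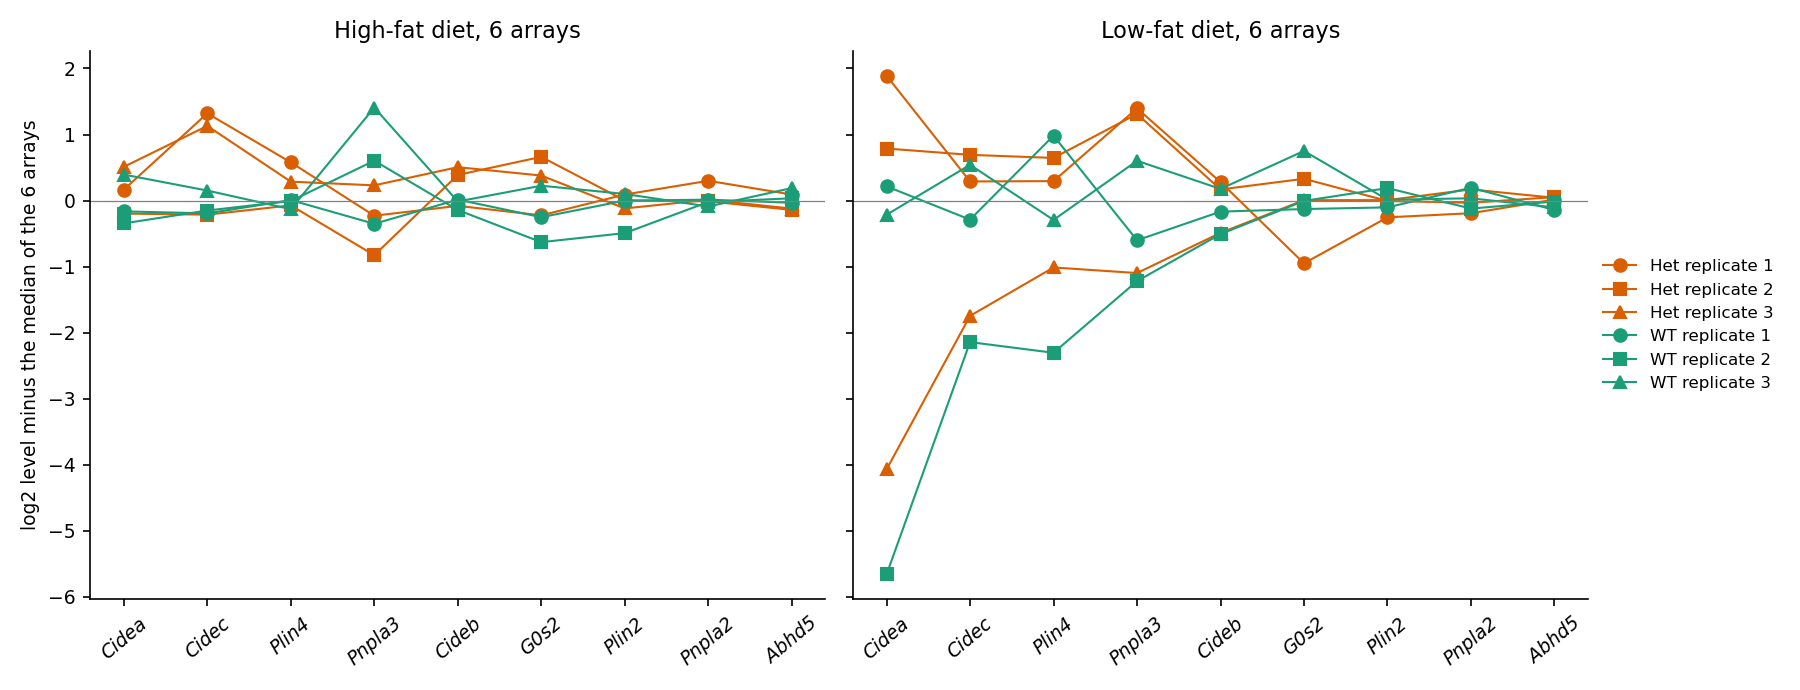
Difference of each liver from the median of its diet on the log2 scale (vertical axes) for the 9 tested members along the horizontal axes, with 1 line per liver and the 6 high-fat livers in the left panel. WT low-fat mouse 2 and Het low-fat mouse 3 lie lowest for Cidea, Cidec, Plin4 and Pnpla3.

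The same 2 mice, WT low-fat mouse 2 and Het low-fat mouse 3, were the lowest low-fat livers for Cidea, Cideb, Cidec, Plin4 and Pnpla3. That is 5 of 9 members, beside 19.1% of all genes. The pair was picked from these same levels, so the count describes them and is not a test. They were not lowest for Plin2, Abhd5, Pnpla2 or G0s2. Without both mice, a choice made after seeing the data, the difference of Cidea was 2.13 ± 0.36 in Het (limma adjusted p = 0.0150), 3.27 ± 0.36 in WT (limma adjusted p = 0.00910) and 2.70 ± 0.26 over both (limma adjusted p = 0.00115). Cidec then differed by 2.51 ± 0.31 and Plin4 by 1.66 ± 0.24 over both genotypes (limma adjusted p = 0.00207 and 0.00315). In that reduced set 3 of 9 members rose in Het, 4 in WT and 5 over both, beside 12.9%, 6.38% and 32.4% of its 17119 genes called in either direction. The order of the low-fat livers in these genes is a description of 6 mice.

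Over the 12 livers the levels of Cidea, Cidec and Plin4 rose and fell together. Pearson's r was 0.95 for Cidea with Plin4, 0.94 for Cidec with Plin4 and 0.93 for Cidea with Cidec. After the group means were taken out it was 0.89, 0.79 and 0.88 for the same pairs, and without WT low-fat mouse 2 and Het low-fat mouse 3, over 10 livers, it was 0.13, 0.02 and 0.14, so the likeness within groups rested on these 2 mice. Cidec and Pnpla3 had 0.71 over all 12 livers, 0.85 within groups and 0.66 within groups without the same 2 mice. Abhd5 had 0.78 with Cidec over all 12 livers, 0.04 within groups and 0.61 without the 2 mice. These values describe 12 points that share arrays, diets and scan days.

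Of 14157 named genes compared over the 12 arrays, those with a profile most like Cidec included Tbc1d31, Ddit4l, Lgals1 and Uap1l1, each with r = 0.98. Those most like Plin2 were Abcb4 and Polr1e with 0.96, Dbi and Rtf2 with 0.95 and Xrcc3 with 0.94. Those most like Pnpla3 were Klk1b3 with 0.94, Mab21l3 with 0.92, Sulf1 and Klk1b21 with 0.91 and Pgm2 with 0.90. The kallikreins Klk1b3 and Klk1b21 belong to a family of near-identical genes, so which copy the probes read is uncertain.

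Of the other droplet genes, 24 were listed and 23 tested. In Het mice 2 rose on high fat, in WT mice 3 and over both genotypes 5, beside the 7.6%, 2.72% and 13.4% of all genes that rose, and 0 fell in any of these comparisons. The Het count is thus near the share of all genes. Hilpda, which encodes another inhibitor of ATGL, rose by 0.80 ± 0.20 in Het and 0.88 ± 0.20 in WT. Hsd17b13, a droplet enzyme of hepatocytes, rose by 0.49 ± 0.15 in Het and 0.72 ± 0.15 in WT. Plin3, a perilipin found in most tissues, differed by 0.17 ± 0.14 in Het, which did not pass, and rose by 0.56 ± 0.14 in WT. Bscl2, the gene of the droplet assembly protein seipin, and Fitm1, a gene for a fat-binding membrane protein, rose over both genotypes by 0.46 ± 0.12 and 0.52 ± 0.15. Plin5, the perilipin that ties droplets to mitochondria, did not pass (0.31 ± 0.12 over both, limma adjusted p = 0.0754), nor did the lipase genes Lipe and Mgll. The median of the list over both was 0.13, beside -0.03 over all genes.

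**Figure D4:**
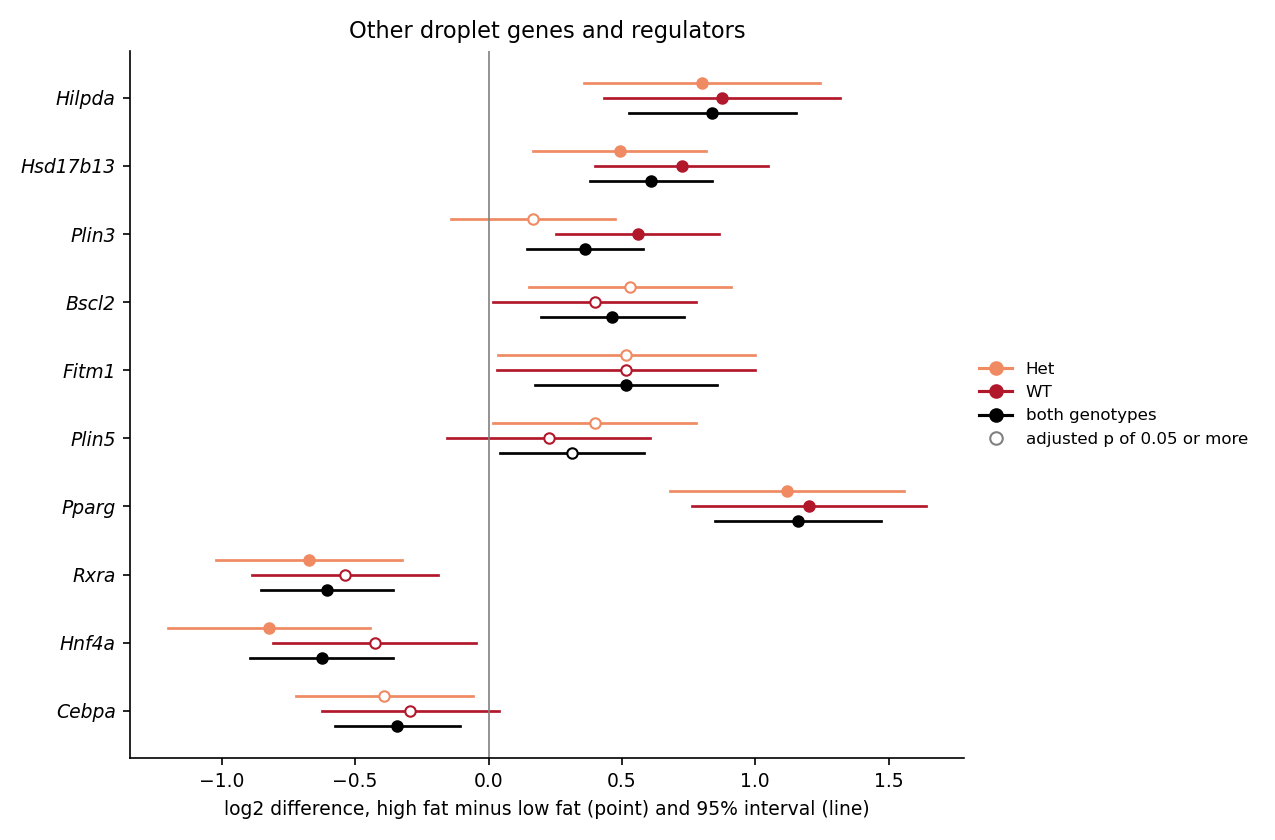
Log2 difference of high-fat minus low-fat livers (horizontal axis) for other droplet genes and regulators in Het, in WT and over both genotypes, with 95% intervals from limma and filled points where the adjusted p was under 0.05. Hilpda, Hsd17b13 and Pparg lie right of 0 in all 3 rows, and Rxra, Hnf4a and Cebpa left of it.

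Among 12 regulators of these genes, all tested, only Pparg rose, in Het, in WT and over both. This stands beside 7.6%, 2.72% and 13.4% of all genes, so the Het count is near the share of all genes. In Het 2 fell, in WT 0 and over both 3, beside 8.25%, 3.16% and 16.7% of all genes. Pparg had 2.95, 2.60 and 2.39 in Het high-fat livers against 1.48, 1.84 and 1.27 in Het low-fat livers, and 2.67, 2.60 and 2.67 in WT high-fat livers against 1.66, 1.10 and 1.58 in WT low-fat livers. The diets did not overlap, and WT low-fat mouse 2 and Het low-fat mouse 3 were the lowest, as for 19.1% of all genes. It rose by 1.12 ± 0.20 in Het (limma adjusted p = 0.00746) and 1.20 ± 0.20 in WT (limma adjusted p = 0.0151). Its partner Rxra and the hepatocyte factor Hnf4a fell in Het by 0.67 ± 0.16 and 0.82 ± 0.17, and in WT their differences of -0.54 and -0.43 did not pass. Over both genotypes Rxra, Hnf4a and Cebpa fell, the last by 0.34 ± 0.11. Srebf1 and Ppara, which drive fat synthesis and fat oxidation, did not pass.

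Several members are also abundant in fat cells, so fat cell markers were read in the same livers. Of 10 listed, 5 were well above background on 0 of 12 arrays, Lep, Adrb3, Slc7a10, Acvr1c and Ucp1. Adipoq was well above background in 2 Het and 1 WT high-fat livers against 2 Het and 2 WT low-fat livers. The summed level of the list, in multiples of the array's 75th percentile, was 11.1 to 20.5 in Het and 14.4 to 25.5 in WT high-fat livers, against 4.53 to 5.59 in Het and 4.05 to 6.68 in WT low-fat livers. Without Fabp4, which macrophages also express, it was 0.56 to 1.26 in Het and 0.92 to 3.53 in WT high-fat livers, against 0.29 to 0.64 in Het and 0.18 to 1.16 in WT low-fat livers. Of the 3 markers tested, Cfd and Fabp4 rose over both genotypes, beside 13.4% of all genes. Aqp7 was well above background in 3 of 3 Het and 2 of 3 WT high-fat livers against 0 of 6 low-fat livers. It passed the filter through the Het high-fat livers alone, so its call is not counted here. Cfd was lowest, among low-fat livers, in WT mouse 2 and Het mouse 3, at -3.02 and -2.30, as were 19.1% of all genes. Fabp4 was not. Their part in the diet differences of the members was not tested.

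Markers of other liver cells moved as well. Beside the counts below, 7.6% of all genes rose in Het, 2.72% in WT and 13.4% over both. The shares of all genes that fell were 8.25%, 3.16% and 16.7%. Of 9 macrophage markers 5 rose in Het, 3 in WT and 5 over both, and of 8 stellate cell markers 2 rose in Het, 3 in WT and 5 over both. Of 5 cholangiocyte markers 1 rose in Het, 0 in WT and 3 over both, Krt19, Epcam and Spp1. The summed level of the 5 was 12.96 to 68.6 in Het and 19.8 to 24.1 in WT high-fat livers, against 7.09 to 9.51 in Het and 6.65 to 9.22 in WT low-fat livers, without overlap, and their part in the differences of the members was not tested. Of 5 endothelial markers 2 fell in Het, 1 in WT and 2 over both, and of 7 hepatocyte markers 3 fell in Het, 1 in WT and 3 over both. Of 5 skeletal muscle markers 1 could be tested, Acta1, which rose in Het by 1.27 and did not pass in WT or over both. All 5 were dim, with a summed level of 0.058 to 0.120 in Het and 0.037 to 0.078 in WT high-fat livers. On low fat it was 0.062 to 0.086 in Het and 0.058 to 0.072 in WT livers. The group that carried Acta1 through the filter is not given here. In whole liver, more cells of a type and more RNA per cell cannot be told apart.

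No member passed the test between Het and WT mice. In limma 0 of 9 members and 0 of 17043 genes (0%) passed on either diet, over both diets or in the interaction of genotype and diet. With 1 array left out the genes called numbered up to 54 on high fat and up to 8 in the other 3 comparisons, and 0 were members. At an unadjusted p under 0.05 the members, each by its brightest probe, also numbered 0 in each, beside 8.65% of all genes on high fat, 2% on low fat, 4.83% over both and 4.86% in the interaction. The 95% interval of Het minus WT over both diets ran from -0.25 to 0.26 for Plin2, from -0.17 to 0.17 for Abhd5 and from -0.18 to 0.25 for the brighter Pnpla2 probe. The second Pnpla2 probe had 1.74, 1.77 and 2.03 in Het high-fat livers against 1.61, 1.47 and 1.21 in WT high-fat livers. Its Het minus WT was 0.42 ± 0.14 on high fat (unadjusted p = 0.0123, adjusted p = 0.435 over all probes in limma) and 0.22 ± 0.10 over both diets (unadjusted p = 0.0462, adjusted p = 0.970 in limma). The interval was far wider for Cidea (-1.71 to 3.33), Cidec (-0.56 to 1.74), Plin4 (-0.64 to 1.46) and Pnpla3 (-1.04 to 1.15). A 2-fold higher level in Het mice lies within the interval for each of these genes, and a 2-fold lower level only for Cidea and Pnpla3.

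**Figure D5:**
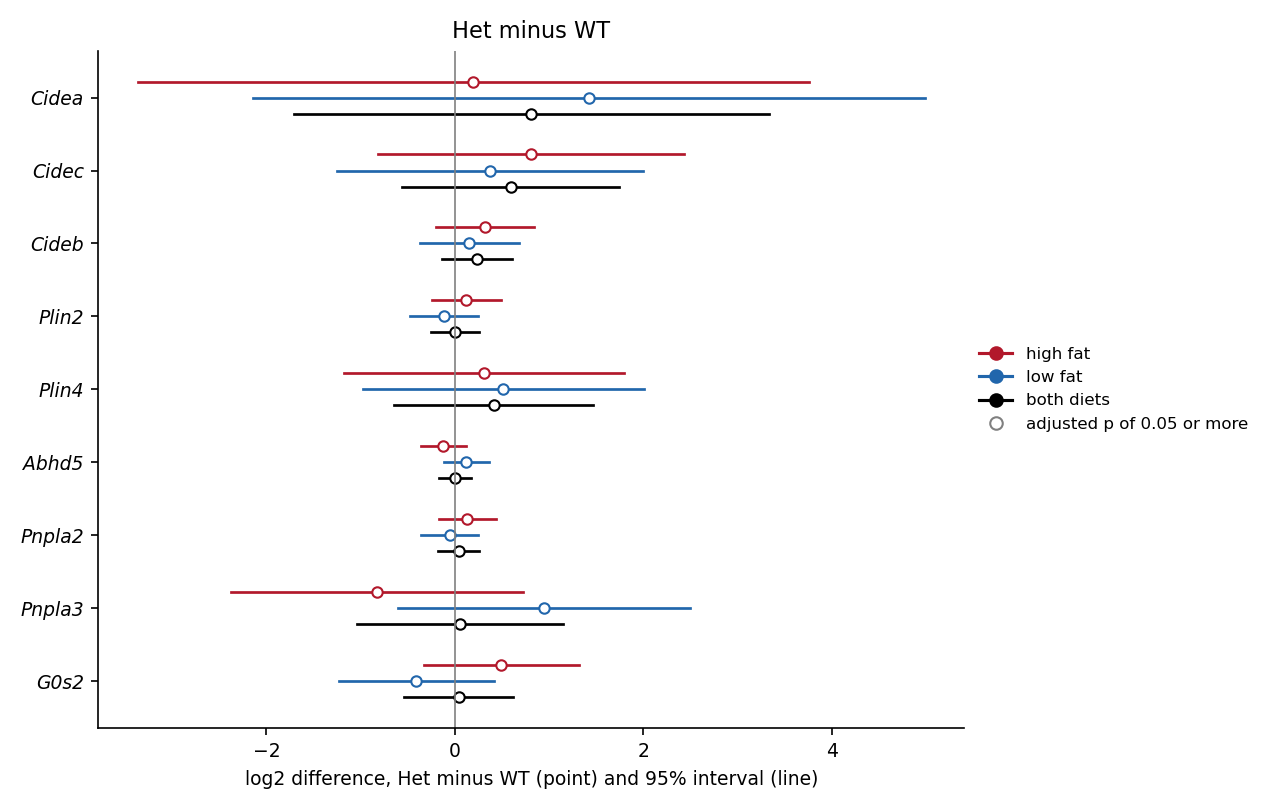
Log2 difference of Het minus WT livers (horizontal axis) for each tested member on high fat, on low fat and over both diets, with 95% intervals from limma. All points are open (adjusted p of 0.05 or more), and every interval includes 0.

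Genotypes shared a slide only in part, so each value was also taken within the slide that held both, 3 Het and 1 WT livers on high fat and 1 Het and 3 WT livers on low fat. For Pnpla3 Het minus WT was -0.83 ± 0.70 on high fat and 0.94 ± 0.70 on low fat. Within the shared slide it was -1.68 and 1.80, each ± 0.93 with slide as a fixed block. The first rested on WT high-fat mouse 3, whose Pnpla3 level was the highest of the 12 livers. The second rested on Het low-fat mouse 1, the highest low-fat liver. The interaction, the diet difference in Het minus that in WT, was -1.77 ± 0.99 (unadjusted p = 0.102 in limma). For G0s2 Het minus WT was 0.49 ± 0.37 on high fat and -0.41 ± 0.37 on low fat. Within the shared slide it was 0.05 and -1.16, each ± 0.41 with slide as a fixed block. The value on low fat rested on Het low-fat mouse 1, whose G0s2 level was the lowest of the 12 livers. For Cidea on high fat the sign turned, with 0.20 over all slides and -0.23 within the slide, and likewise for Plin2, with 0.12 and -0.11. On low fat every Het liver had more Abhd5 than every WT liver, 1 of 9 members beside 1.95% of all genes. That difference was 0.12 ± 0.11, with a 95% interval from -0.12 to 0.37, and the second Abhd5 probe gave -0.02 ± 0.22.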

How the data were processed

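Per the labels, RNA of 12 livers was labelled with Cy3 and hybridised to 1-colour Agilent arrays. The deposited scanner tables hold the processed intensity of each spot, and the submitters' processing notes name Agilent Feature Extraction 9.5. Background had been subtracted from it, per the file headers, which record no scaling between arrays. The deposited series table held the same intensity values on a linear scale, uncentred. Flags for outlying, saturated and well-above-background spots are 0 or 1 in the deposited files.

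Outlier spots (1344 over all arrays) and control spots were left out. The log2 of the array's 75th percentile was subtracted from each log2 intensity of the deposited tables. Of 41174 probes, 25297 were kept, those well above background on every array of 1 or more groups with values on 2 or more arrays of each group. Probes were named by accession (22951), current symbol (6659) or older symbol (3109) in the RefSeq table, and 8455 kept the array design's name. The brightest probe stood for a gene. Group differences came from limma 3.58.1 (R 4.3.3) over 4 groups, with 8 residual and 2.8 prior degrees of freedom, in 7 comparisons, and the fit was tested on simulated data. Correlations are Pearson's. The members are all named, other genes are those called in their lists, and genes among the 5 most similar profiles are named for Cidec, Plin2 and Pnpla3. A gene among them is not reported here. Plin5, Lipe, Mgll, Srebf1 and Ppara were named although they did not pass. The members and gene lists were chosen with earlier results of these data known. Alternatives were other scalings, background corrections, filters, probe averaging, slide and replicate blocks, fits with fewer groups and leaving out arrays. The number of arrays limits the precision.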

Additional observations from a re-analysis of the deposited data

How the results depend on the processing

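The calls over both genotypes of Cidea, Cidec, Plin4 and Abhd5 held in limma in each of 12 fits that left out 1 array and in 10 other alternatives. The count of members that rose was less stable within a genotype. In Het it was 2 as reported (15.8% of all genes called in either direction). It was 1 with no filter on dim probes (4.3%), 1 with the replicate block (11.2%) and 5 with slide as a random block (31.8%). With quantile, normexp or trended robust eBayes it was 3 (17.8%, 19.5% and 17.4%). When 1 array was left out it ran from 0, without Het high-fat mouse 1 (5.11%), to 3, without WT low-fat mouse 2 (16.8%). In WT it was 2 as reported (5.89%), 0 with no filter (0.564%) and 1 with the mean over the probes of a gene (6.41%). It was 0 with the replicate block (3.22%), 4 with slide as a random block (21.1%) and 1 with only the groups compared (3.51%). With median scaling, normexp or the filter on all arrays it was 3 (7.84%, 7.48% and 7.29%). Without WT low-fat mouse 2 and Het low-fat mouse 3 it was 4 (6.38%). When 1 array was left out it ran from 0, as without WT high-fat mouse 3 (1.1%), to 3, without Het low-fat mouse 3 (5.47%). Over both genotypes the members called numbered 4 to 7, with 5 as reported (30.2% of all genes). The count was 4 with no filter (13.7%), among other settings, and 7 with slide as a random block (51.1%). Plin2 was lost over both genotypes with no filter (limma adjusted p = 0.0833) and with the replicate block (limma adjusted p = 0.0691). Pnpla2 was called lower with normexp, the filter on all arrays, trended robust eBayes and the random slide block, whose correlation was -0.18 and which also called Pnpla3 higher. No pairing of the mice by replicate number was evident. Correlations of same-numbered deviations ran from -0.47 to 0.46, and 3 of 12 arrays correlated best with their own number. These values cannot settle whether same-numbered mice were handled together. Against 0 as reported, quantile normalization called 2 genes for genotype on high fat and slide as a fixed block 1 on low fat and 1 over both, and leaving out 1 array called up to 54, on high fat without WT high-fat mouse 3. Of these genes 0 were members. The cause of these changes was not tested.

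None of the called values turned its sign. With scaling to the median, Het minus WT over both diets was -0.051 for Plin2, -0.015 for Pnpla2, -0.053 for Abhd5 and -0.014 for G0s2. With normexp and quantile normalization, the diet difference in Het was -0.057 for Pnpla3, Het minus WT on low fat was 0.012 for Pnpla2 and Het minus WT over both diets was -0.018 for Pnpla3. With the mean over probes, the diet difference in Het was 0.043 for Pnpla2 and Het minus WT over both diets was -0.038 for Abhd5. With slide as a fixed block, as within the shared slide, Het minus WT on high fat was -0.23 for Cidea and -0.11 for Plin2, Het minus WT over both diets was -0.20 for Plin2, -0.019 for Pnpla2, -0.072 for Abhd5 and -0.55 for G0s2 and the interaction was -0.16 for Cideb and -0.33 for Cidec. The remaining values turned with arrays left out, 1 at a time or both low mice, and are given as their range over those fits. Het minus WT over both diets was -0.17 to 0.47 for Pnpla3, -0.036 to 0.033 for Abhd5, -0.088 to 0.060 for Plin2, -0.093 to 0.23 for G0s2, -0.011 to 0.082 for Pnpla2, -0.13 to 1.71 for Cidea and -0.031 to 0.79 for Plin4. Het minus WT on high fat was -0.058 to 0.24 for Plin2. The diet difference over both genotypes was -0.27 to 0.022 for Cideb. The diet difference in Het was -0.22 to 0.19 for Cideb and -0.64 to 0.60 for Pnpla3. Het minus WT on low fat was -0.15 to 0.032 for Pnpla2, -0.46 to 3.23 for Cidea, -0.018 to 0.39 for Cideb, -0.38 to 1.12 for Cidec and -0.37 to 1.28 for Plin4. The interaction was -3.03 to 0.66 for Cidea, -0.97 to 0.68 for Plin4, -0.071 to 0.34 for Cideb and -0.31 to 1.19 for Cidec. The diet difference in WT was -0.32 to 0.022 for Cideb and -0.43 to 0.066 for G0s2.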
